A study of Homo sapiens with 24 samples.

Results

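The immunoglobulin chain genes and JCHAIN encode the protein parts of secreted antibody and MZB1 encodes a helper of its assembly, and their transcripts were examined in the human multiple myeloma cell line ARP1. The gene was chosen by its name and by its mean FPM in these same libraries. The rows looked for were JCHAIN, MZB1 and any symbol that starts with IGH, IGK or IGL followed by A, C, D, E, G, M or V, with a mean of at least 5 FPM over the 6 libraries. FPM is the authors' unit for the fragments of a gene scaled to the size of its lane, as CPM is. Of 19158 genes, 3 matched by name, and 2 of these, JCHAIN and IGHMBP2, reached that mean. MZB1 lay just outside it with a mean of 3.98 FPM and is described here as well. IGHMBP2 is a helicase that was named for binding immunoglobulin DNA. It was kept out because it is not an antibody chain gene, which leaves 1 gene, JCHAIN. No identifier used here matched any of the 414 immunoglobulin genes of GENCODE release 29, so heavy and light chain genes are not analysed here, and their levels and ratios to JCHAIN are not given.

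The cells had been kept for 24 h with PBS, the vehicle, or with LPA. That abbreviation was read as lysophosphatidic acid, a signalling lipid with G protein-coupled receptors on many cells. Its labelled dose, 4 mg/mL, is an unusual figure for this lipid, so the unit is in doubt. There are 3 libraries per treatment, named PBS 1 to 3 and LPA 1 to 3. Every library was sequenced in 4 lanes, which count together as 1 replicate. Separate cultures are not stated for the libraries of a treatment. The p-values therefore speak only to the spread among these libraries, which may be technical, and all of them come from 1 cell line.

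The libraries held between 5498910 and 5615625 reads with PBS and between 6941747 and 8740992 with LPA, so the LPA libraries were the deeper ones. PBS 2 and LPA 3 stood apart from the other libraries of their groups. The variance between PBS 2 and the other PBS libraries was 3.97 and 4.05 times that of counting, against 1.36 between PBS 1 and PBS 3, and LPA 3 gave 2.51 and 2.98 against 1.37 between LPA 1 and LPA 2. Values without both are therefore given for the main genes. Markers of plasma cells, the cell type from which myeloma arises, were present: all 7 listed (SDC1, TNFRSF17, CD38, SLAMF7, PRDM1, IRF4 and XBP1) had at least 1 FPM, with a summed level between 840.4 and 908 FPM with PBS and between 1180 and 1249 FPM with LPA. SDC1, the plasma cell surface proteoglycan CD138, was at 60.7 ± 1.20 FPM with PBS and 118 ± 11.9 FPM with LPA (SD, n = 3 each), while CD38 was at 7.28 ± 1.05 and 5.95 ± 1.78 FPM. The summed B cell markers were low in both groups but did not overlap, between 1.96 and 2.35 FPM with PBS and between 2.86 and 3.08 FPM with LPA. Of the 3 T cell markers only CD3E had values, between 0 and 0.180 FPM with PBS. With LPA it was at 2.15 FPM in LPA 2, from 16 reads, and at 0.114 and 0 FPM in LPA 1 and LPA 3. The stromal markers were between 15.2 and 21.5 FPM with PBS and between 12.4 and 16.4 FPM with LPA. Of these, COL1A1, a collagen gene, was called lower, at 14.6 ± 2.41 and 10.2 ± 0.813 FPM (log2 fold change -0.47, limma adjusted p = 0.0105, and -0.60 on rescaled FPM). That call was lost without PBS 3, without LPA 3 and with a single prior variance in limma. COL1A2, the other stromal marker, went the other way, at 3.30 ± 0.922 and 4.39 ± 1.53 FPM, and did not pass (0.31, limma adjusted p = 0.315). The part of these markers in the results was not tested.

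An antibody is built from heavy and light chains that are folded in the endoplasmic reticulum. Plasma cells that secrete IgM or dimeric IgA add the joining chain, the product of JCHAIN, a small cysteine-rich protein that links antibody units by disulfide bonds and lets the polymer bind the receptor that carries it across epithelia. MZB1 is a resident protein of the endoplasmic reticulum of B cells and plasma cells. It is known, mainly from mouse, as a helper of the chaperones HSP90B1 and HSPA5 in antibody assembly.

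The bases just before the start of both genes are shown because immunoglobulin promoters carry a short element, the octamer ATGCAAAT, which POU2F1, POU2F2 and their coactivator POU2AF1 bind, and POU2F2 and POU2AF1 are described below. The sequences come from RefSeq, build GRCh38.p14, and cover the 250 bases before the annotated start of each gene on the minus strand, at chr4:70666509-70666758 for JCHAIN and chr5:139389914-139390163 for MZB1. The capitals mark the first 7 bases of the octamer, ATGCAAA.
JCHAIN: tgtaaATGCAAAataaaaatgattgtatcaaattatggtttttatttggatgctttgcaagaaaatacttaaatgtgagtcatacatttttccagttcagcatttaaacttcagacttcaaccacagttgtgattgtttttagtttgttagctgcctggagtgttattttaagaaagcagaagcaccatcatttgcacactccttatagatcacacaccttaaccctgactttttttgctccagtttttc
MZB1: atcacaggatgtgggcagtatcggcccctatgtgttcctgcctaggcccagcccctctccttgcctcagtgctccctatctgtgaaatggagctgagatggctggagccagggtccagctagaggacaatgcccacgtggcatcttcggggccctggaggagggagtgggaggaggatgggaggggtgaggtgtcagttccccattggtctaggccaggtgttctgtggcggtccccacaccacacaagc
On both strands, the whole octamer was in neither window, and 1.63% of 35116 such windows over all genes hold it. Its first 7 bases, which overlap the octamer by construction, were found at 1 place in the JCHAIN window and in 3.94% of all windows. Its last 7 bases, TGCAAAT, were not part of the search. On the other strand they match the letters atttgca, which are present but unmarked in the JCHAIN window, and their share of all windows is not given. Also searched were TATAAA (10.7% of windows), the PU.1 core GAGGAA (23.6%), the MEF2 pattern (2.36%) and TGACGTG, the core of an XBP1 element (1.68%), and none of these letters occur in either window. These are matches of letters, not binding sites.

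JCHAIN (ENSG00000132465) was abundant with PBS and higher with LPA. Its level was 721, 809.8 and 730.3 FPM in PBS 1 to 3 and 1383, 1328 and 1425 FPM in LPA 1 to 3. All 3 LPA libraries lay above all 3 PBS libraries, which holds for 31.4% of the 16274 genes tested. The mean was 754 ± 48.9 FPM with PBS and 1379 ± 48.6 FPM with LPA (SD, n = 3 each), 1.83-fold higher. On the log2(FPM + 1) scale this is a fold change of 0.87 (SE 0.05, 95% interval 0.78 to 0.96, limma over all tested genes, Benjamini-Hochberg adjusted p = 6.16e-22). At the same threshold, an adjusted p below 0.05, 22.5% of tested genes were higher with LPA. JCHAIN was picked with earlier results of these data known, so its call is a description and not independent evidence. Without PBS 2 and LPA 3 the log2 fold change was 0.90 (limma adjusted p = 1.21e-43). Those libraries were left out because they stood apart, so the smaller p is not added evidence. The size of the p also depends on how limma models the variance. With a single prior variance for all genes, the adjusted p was 0.00746 (95% interval 0.67 to 1.07). In RNA from whole cultures, a larger share of cells with the transcript and more transcript per cell cannot be told apart.

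The deposited FPM of the tested genes leaned upward with LPA. Over all tested genes the median log2 fold change was 0.13, and whether this lies in the cells or in the scaling was not tested. FPM were therefore also rescaled with size factors taken as medians of ratios. There, the median of all genes was 0.01, 10.0% of genes were higher and 9.20% lower, and the log2 fold change of JCHAIN was 0.73 (limma adjusted p = 3.31e-18). The reads counted for JCHAIN were 4047, 4478 and 4016 in PBS 1 to 3 and 12089, 9892 and 9894 in LPA 1 to 3. The counting error is therefore small: the highest PBS library, PBS 2, had a 95% Wilson interval of 786 to 834 FPM and the lowest LPA library, LPA 2, one of 1302 to 1355 FPM. Such intervals cover counting error only, since reads are not counted as separate molecules.

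The lanes gave the same picture. Within PBS 1 the 4 lanes ran from 686 to 745 FPM, within PBS 2 from 779 to 826 FPM and within PBS 3 from 682 to 753 FPM. Within LPA 1 they ran from 1358 to 1424 FPM, within LPA 2 from 1308 to 1357 FPM and within LPA 3 from 1403 to 1454 FPM. Every LPA lane lay above every PBS lane. Lanes re-read 1 library, so they show the precision of the sequencing and not of the treatment. The lane spread of JCHAIN was between 0.587 and 2.08 times the variance that counting gives.

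**Figure D1:**
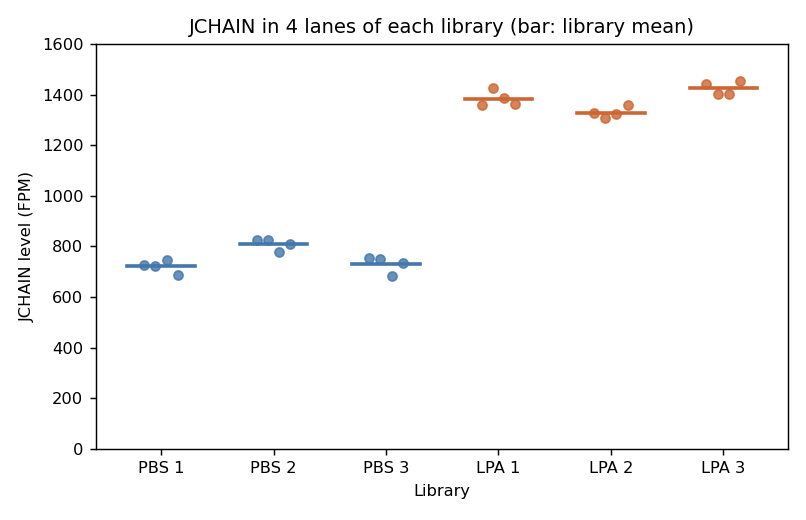
JCHAIN level in FPM (vertical axis, from 0) in each of the 4 lanes (points) of the 6 libraries (horizontal axis), with the mean of each library as a bar. The PBS libraries have means between 721 and 809.8 FPM and the LPA libraries between 1328 and 1425 FPM, and no lane of one group reaches the other.

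Set against exon length, JCHAIN was among the most densely read protein-coding genes of ARP1. Its density was between 429 and 482 FPM per kb of annotated exon with PBS, at places 20 to 23 among 15661 protein-coding genes. With LPA it was between 791 and 848 FPM per kb, at places 13 to 16. MZB1 was between 1.27 and 1.41 FPM per kb with PBS and between 2.11 and 2.22 FPM per kb with LPA, at places 9570 to 10904. In every library JCHAIN was thus far denser in reads than MZB1. By log2 fold change JCHAIN stood at place 40 among the 3666 genes higher with LPA. Among the 773 of these with a mean of at least 100 FPM, a limit chosen after the values were seen, it stood at place 2, after HIPK2.

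MZB1 (ENSG00000170476) was near the limit of what these libraries can measure. It had 18, 16 and 17 reads in PBS 1 to 3 and 42, 36 and 35 reads in LPA 1 to 3. As levels these are 3.21, 2.89 and 3.09 FPM with PBS and 4.80, 4.84 and 5.04 FPM with LPA. All LPA libraries lay above all PBS libraries, which holds for 31.4% of tested genes. The mean was 3.07 ± 0.163 FPM with PBS and 4.89 ± 0.127 FPM with LPA (SD, n = 3 each), 1.60-fold higher. The added 1 FPM narrows the log2 fold change of a gene at so low a level. On the log2(FPM + 1) scale it was 0.54 (SE 0.20, 95% interval 0.14 to 0.93, limma adjusted p = 0.038), where 22.5% of tested genes were called higher. Leaving out any single library of the 6 ended this call, with a log2 fold change between 0.50 and 0.56. It also failed on rescaled FPM (0.42, adjusted p = 0.124) and by edgeR on recovered reads (0.53, adjusted p = 0.137), where 10.3% of genes were higher. Without PBS 2 and LPA 3 together it was 0.49 (adjusted p = 0.117). The counting intervals of single libraries overlap, with 1.93 to 4.95 FPM in PBS 3 and 3.49 to 6.69 FPM in LPA 2. Over pooled reads, 51 with PBS and 113 with LPA, the ratio was 1.59 with an exact 95% interval of 1.14 to 2.27 for counting error alone.

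Whether JCHAIN and MZB1 differed in their response was asked of their ratio within each library, which no scaling changes. JCHAIN had 224, 280.1 and 236 times the FPM of MZB1 in PBS 1 to 3 and 288, 275 and 283 times in LPA 1 to 3. The groups overlap, since PBS 2 exceeds LPA 2. The difference was 0.20 on the log2 scale, taken from FPM without the added 1. Its p was 0.2 in a two-sided exact permutation test, where 3 libraries against 3 allow no p below 0.1. That does not show that they moved alike. It was the first of 3 ratios tested, and its p adjusted over the 3 was 0.2.

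IGLL5 (ENSG00000254709), a light chain-like gene of the lambda locus, was higher in every LPA library than in any PBS library, as were 31.4% of tested genes. Its level was 73.8, 67.1 and 76.8 FPM in PBS 1 to 3 and 104.6, 103 and 106 FPM in LPA 1 to 3. The mean went from 72.6 ± 4.96 to 105 ± 1.39 FPM (SD, n = 3 each), which is 0.53 as a log2 fold change (SE 0.07, adjusted p = 1.93e-07 by limma), and of 0.38 on rescaled FPM (adjusted p = 4.32e-05). Its symbol does not follow the name rule. In GENCODE 29 its exons share 460 bases with IGLC1, a lambda constant region gene, and how reads there were assigned is not given in the sources used here. Reads of IGLL5 and of a lambda light chain therefore cannot be told apart. The ratio of JCHAIN to IGLL5 was 9.76, 12.1 and 9.51 in PBS 1 to 3 and 13.2, 12.8 and 13.4 in LPA 1 to 3. Here the groups did not overlap, with a log2 difference of 0.34 (two-sided exact permutation p = 0.1, the smallest possible, and 0.15 adjusted over 3 ratios). VPREB3, a component of the precursor B cell receptor complex, was at 0.84 ± 0.412 FPM with PBS and 0.668 ± 0.298 FPM with LPA and did not pass (adjusted p = 0.780), and VPREB1 and IGLL1 are not analysed here.

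**Figure D2:**
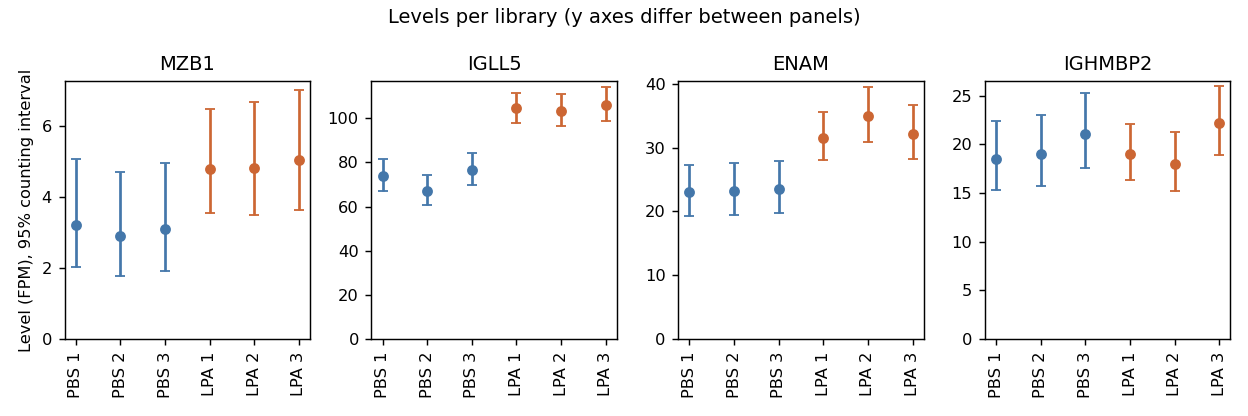
Levels in FPM (vertical axes, from 0, on a separate scale in each panel) of MZB1, IGLL5, ENAM and IGHMBP2 in the 6 libraries, from summed reads, with 95% Wilson counting intervals as bars. The LPA libraries lie above the PBS libraries for MZB1, IGLL5 and ENAM, with wide overlapping intervals for MZB1, while for IGHMBP2 the PBS libraries (18.5 to 21.1 FPM) lie within the range of the LPA libraries (18.0 to 22.2 FPM).

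IGHMBP2, the helicase caught by the name pattern, was at 18.5, 19.0 and 21.1 FPM in PBS 1 to 3 and 19.0, 18.0 and 22.2 FPM in LPA 1 to 3. It did not pass (log2 fold change 0.01, limma adjusted p = 0.965; -0.13 and adjusted p = 0.470 on rescaled FPM).

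The genes that lie next to JCHAIN and MZB1 were looked at in turn. On chromosome 4 the nearest protein-coding neighbours with values were AMBN and ENAM on one side and UTP3, RUFY3 and GRSF1 on the other. ENAM, which encodes a protein of tooth enamel, rose from 23.2 ± 0.240 to 32.9 ± 1.81 FPM (0.48 on the log2 scale, SE 0.10, limma adjusted p = 0.000207). Its libraries read 23.0, 23.1 and 23.4 FPM with PBS and 31.6, 34.9 and 32.1 FPM with LPA. ENAM and JCHAIN lie on opposite strands and share 87 bases of annotated exon, and with the strand setting of the counting not known, reads there cannot be told apart. The ratio of JCHAIN to ENAM was between 31.1 and 35.0 with PBS and between 38.0 and 44.4 with LPA (two-sided exact permutation p = 0.1, 0.15 adjusted over 3 ratios).

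UTP3, a factor of ribosome biogenesis, and GRSF1, a mitochondrial RNA-binding protein, were called on deposited FPM with log2 fold changes of 0.29 and 0.25 (limma adjusted p = 0.0278 and 0.0252). Neither passed on rescaled FPM (0.16 and 0.11). Without PBS 2, UTP3 was at 0.20 (adjusted p = 0.131), and without PBS 1, GRSF1 was at 0.19 (adjusted p = 0.152). Both calls were also lost without LPA 1 or LPA 2, and that of GRSF1 without PBS 3. AMBN, another enamel protein gene, was at 3.90 ± 0.554 and 5.73 ± 0.234 FPM and did not pass (0.46, adjusted p = 0.063). RUFY3 did not pass either (0.06, adjusted p = 0.681; -0.08 on rescaled FPM).

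On chromosome 5, MATR3, a nuclear matrix RNA-binding protein, rose from 212 ± 21.8 to 281 ± 8.52 FPM (0.41 on the log2 scale, SE 0.06, limma adjusted p = 9.34e-07). PAIP2, which binds poly(A)-binding protein, was called at 0.21 (adjusted p = 0.0279) but not on rescaled FPM (0.07, adjusted p = 0.474). SLC23A1, a vitamin C transporter next to MZB1, was called lower, at 4.09 ± 0.926 FPM with PBS and 2.32 ± 0.927 FPM with LPA, although its groups overlap (-0.64, adjusted p = 0.0278). Without LPA 2 that call was lost (-0.44, adjusted p = 0.193). It was also lost without PBS 2, PBS 3 or LPA 1, with a single prior variance and with DESeq2. Of tested genes, 4.49% were called lower. PROB1, SPATA24 and DNAJC18 did not pass, with log2 fold changes between -0.09 and 0.19.

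The genes whose profile over the 6 libraries was nearest to that of JCHAIN were MTDH, LDHA, HIPK2, AQP3 and TENT5C. Likeness was the root mean square difference between log2(FPM + 1) profiles, each centred on its own mean, over 12031 genes with at least 5 FPM. It was 0.036 for MTDH, 0.038 for LDHA, 0.039 for HIPK2, 0.049 for AQP3 and 0.053 for TENT5C. LDHA, lactate dehydrogenase A, had 217 ± 11.8 FPM with PBS and 387 ± 4.23 FPM with LPA. The kinase gene HIPK2 had 109 ± 9.78 and 204 ± 12.9 FPM, and TENT5C, a noncanonical poly(A) polymerase often mutated in myeloma, had 167 ± 5.06 and 292 ± 16.4 FPM. For MZB1 the nearest of 12032 genes were SIVA1 (0.024), PLPP6 (0.032), RNFT2 (0.033), PAIP2B (0.033) and HSP90B1 (0.036). Since the 6 libraries form 2 groups, this measure favours genes with a like step between the groups. The added 1 FPM also narrows the step of a gene as low as MZB1. By the ratio of means MZB1 was 1.60-fold and HSP90B1 1.45-fold higher with LPA, although their log2(FPM + 1) changes were 0.54 and 0.53. The likeness to abundant genes such as HSP90B1 therefore depends in part on that added value.

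**Figure D3:**
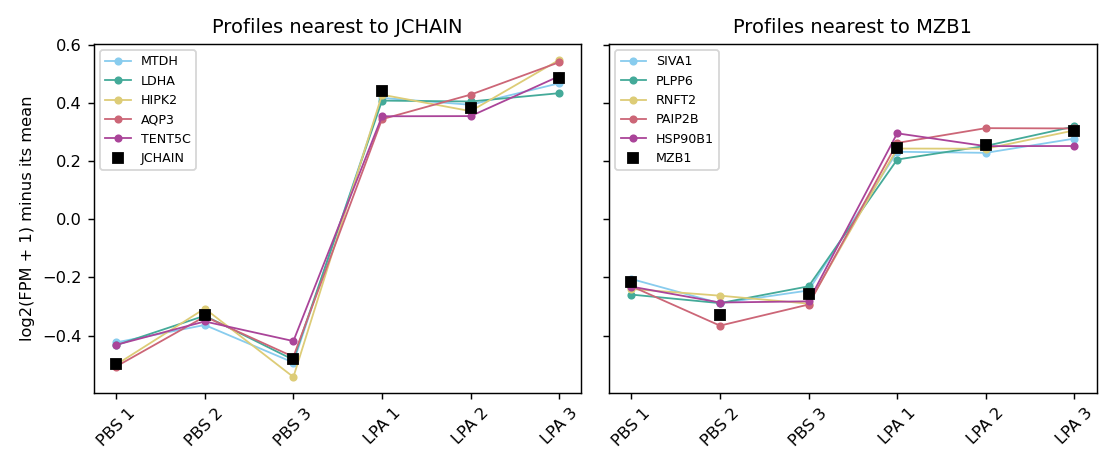
Profiles over the 6 libraries of JCHAIN and of MZB1 with the 5 genes nearest to each, as log2(FPM + 1) minus the mean of the gene (vertical axis). Lines join the libraries to guide the eye only, and in both panels the LPA libraries lie above the PBS libraries, with a wider step for JCHAIN and its nearest genes than for MZB1 and its own.

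Genes that act on immunoglobulin transcription and on the processing of secretory mRNA were mostly higher with LPA. Of 19 listed genes 16 were tested, 11 were higher, none was lower, and 5 did not pass, against 22.5% of all tested genes higher and 4.49% lower. The median log2 fold change was 0.32, beside 0.13 over all tested genes. On rescaled FPM 9 were higher and 1, BACH2, a repressor of plasma cell differentiation, was lower. There, 10.0% of all tested genes were higher and 9.20% lower, and the median of the list was 0.17 beside 0.01. POU2AF1, the coactivator of the octamer factors, rose from 145 ± 7.96 to 240.1 ± 15.6 FPM (0.72 on the log2 scale, limma adjusted p = 3.99e-13). POU2F2, the octamer factor of B cells, rose from 39.4 ± 3.12 to 64.4 ± 4.60 FPM (0.69, adjusted p = 1.31e-08). MEF2C, a factor of B cell activation, rose from 39.9 ± 3.68 to 66.8 ± 3.80 FPM (0.73, adjusted p = 3.23e-09). IRF4, a factor on which plasma cells depend, rose from 343 ± 11.9 to 477 ± 22.5 FPM (0.48, adjusted p = 4.62e-10).

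The genes of the folding and assembly line in the endoplasmic reticulum followed the same direction. All 32 listed were tested, 23 were higher, none was lower and 9 were not past the threshold, against 22.5% of all tested genes higher and 4.49% lower. Their median was 0.34, beside 0.13 over all tested genes. On rescaled FPM 19 were higher and none lower, where 10.0% of all tested genes were higher and 9.20% lower, with a median of 0.20 beside 0.01. DESeq2 called 13 of them higher, and 802 of all 16274 genes. HSP90B1, the chaperone that MZB1 assists in mouse, rose from 453 ± 9.63 to 655 ± 11.6 FPM (0.53, limma adjusted p = 1.19e-12). TXNDC5, a disulfide isomerase, rose from 1849 ± 17.2 to 2564 ± 70.6 FPM (0.47, adjusted p = 1.94e-14). PRDX4, a peroxiredoxin of the endoplasmic reticulum, rose from 60.2 ± 1.83 to 99.4 ± 2.32 FPM (0.71, adjusted p = 1.13e-10), and PPIB, a prolyl isomerase, from 95.9 ± 6.15 to 145 ± 5.27 FPM (0.59, adjusted p = 1.82e-09). JCHAIN, at 0.87, exceeded the highest value of this list, 0.71.

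Of 17 genes of the B cell receptor complex and antibody receptors, 11 were tested, and 1 was higher, 1 lower and 9 not past the threshold, against 22.5% of all tested genes higher and 4.49% lower. Their median was 0.15, close to the 0.13 of all tested genes. PLCG2, the phospholipase downstream of the receptor, was lower, at 126 ± 3.53 FPM with PBS and 105 ± 2.20 FPM with LPA (-0.26, limma adjusted p = 0.00302; -0.40 on rescaled FPM). BLK, a kinase of the receptor pathway, was called higher (0.36, adjusted p = 0.0279) but failed with rescaling (0.23, adjusted p = 0.207). Leaving out LPA 1 ended the call as well (0.34, adjusted p = 0.119), as did leaving out PBS 1, PBS 2 or LPA 2. PIGR, the receptor that polymeric antibody binds through the joining chain, was at 0.597 ± 0.202 and 1.04 ± 0.587 FPM and was too low to be tested.

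Of 23 genes of V(D)J recombination, class switching and somatic hypermutation, 20 were tested, 13 were higher, none was lower and 7 were not past the threshold, against 22.5% of all tested genes higher and 4.49% lower. Their median was 0.29, beside 0.13 over all tested genes. On rescaled FPM 8 were higher and 3 (LIG4, NHEJ1 and TP53BP1) lower, where 10.0% of all tested genes were higher and 9.20% lower, with a median of 0.15 beside 0.01. Among the members with the smallest p were genes of general DNA repair. PRKDC, the catalytic subunit of DNA-dependent protein kinase, rose from 523 ± 20.1 to 730.0 ± 28.6 FPM (0.48, limma adjusted p = 3.39e-11). UNG, uracil DNA glycosylase, rose by 0.62 (adjusted p = 7.16e-07) and EXO1, an exonuclease, by 0.52 (adjusted p = 1.58e-06).

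**Figure D4:**
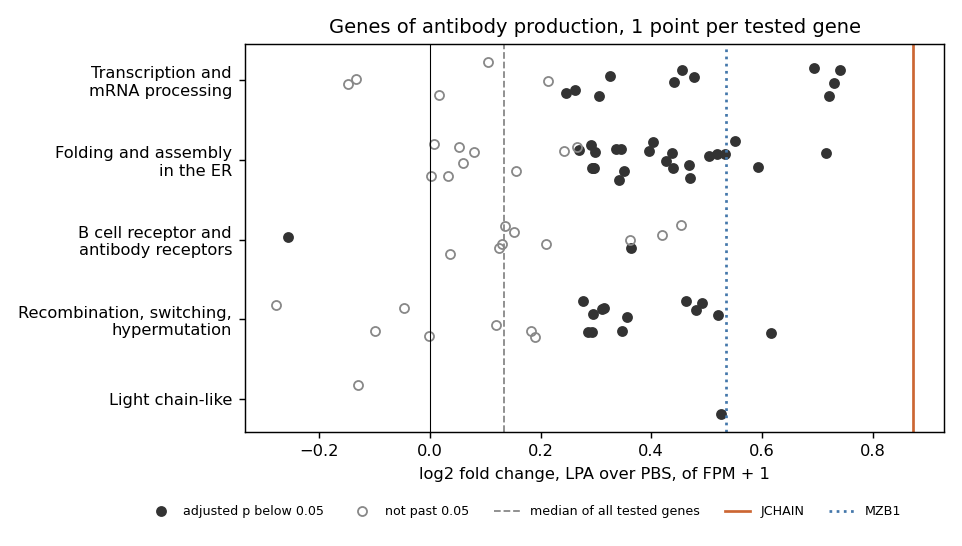
Difference between LPA and PBS, as log2(FPM + 1), for each tested gene (points) of the 5 lists of related genes, filled where the adjusted p was below 0.05. Vertical lines mark JCHAIN (solid), MZB1 (dotted) and the median of all tested genes, 0.13 (dashed). The medians of the transcription and the folding lists are 0.32 and 0.34, and JCHAIN lies at 0.87.

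**Figure D5:**
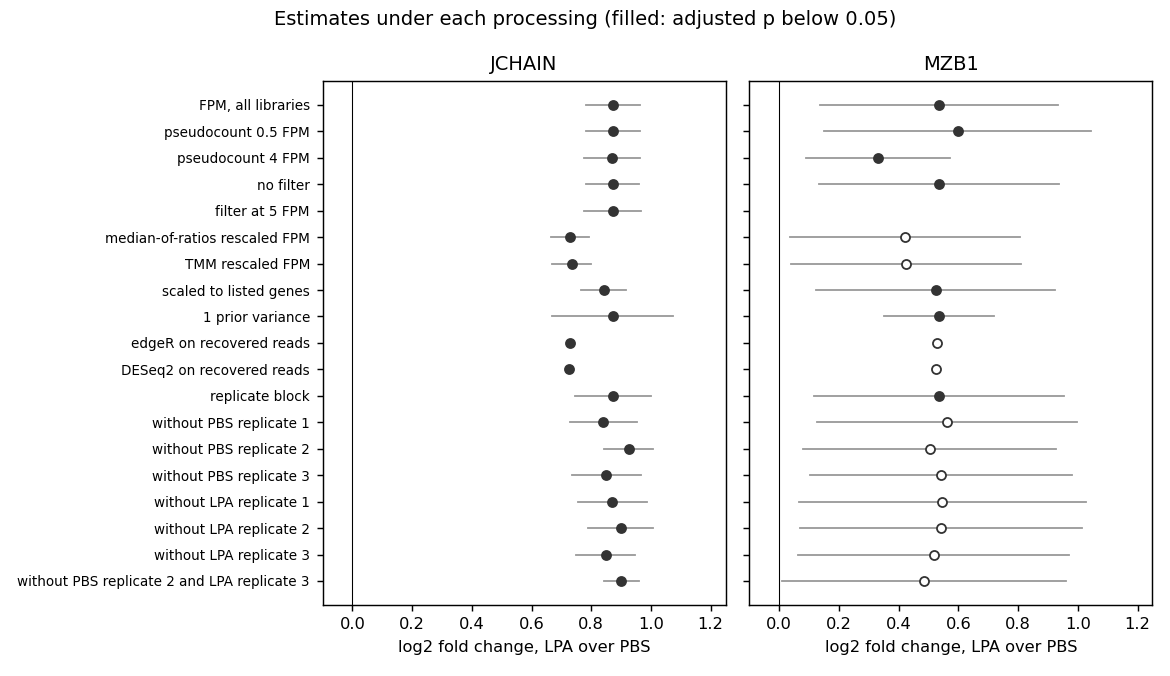
Log2 fold change of LPA over PBS for JCHAIN and MZB1 under the settings tried, with 95% intervals as bars where the method gives them and filled points where the adjusted p was below 0.05. JCHAIN lies between 0.72 and 0.93 and is filled throughout, while MZB1 lies between 0.33 and 0.60 and is open in 11 of the settings.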

How the data were processed

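RNA-seq of ARP1 cells was deposited by the authors as 1 table of FPM (scaled fragments, a CPM-type unit) per gene and lane, for 24 lanes of 6 libraries. For aligner, counter and strand setting, nothing was stated. Per the submitters' processing notes the build was mm10, of mouse, while the identifiers are human, so no coordinates were taken from it. All values (100%) came out as whole reads within 0.02 of a read, which gave the reads used for edgeR 4.0.16 and DESeq2 1.42.0. Rows with repeated identifiers (187) were dropped, and 19158 genes remained. Lanes were averaged per library. limma 3.58.1 (R 4.3.3; trend, robust) was fitted to log2(FPM + 1) for 16274 genes with at least 1 FPM in 3 libraries, with Benjamini-Hochberg adjustment and a threshold of 0.05, and was tested on simulated data. Ratios were tested by exact permutation (scipy 1.17.1). Gene structures came from GENCODE 29. The members and lists were chosen with earlier results of these data known. Named genes were the 4 with the smallest p per list among those past the threshold, 5 nearest profiles and 3 neighbours on each side, beside a few named for their role; some of these are not reported here. Alternatives changed the pseudocount, filter, scaling, variance prior and tool, added a replicate block, or left out libraries.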

Additional observations from a re-analysis of the deposited data

How the results depend on the processing

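JCHAIN and IGLL5 kept their direction and call under all 18 alternatives. Among the genes followed through these alternatives, no called gene changed sign, while IGHMBP2, RUFY3, PROB1 and SPATA24, none of them called, did so under some settings. For MZB1 the call was lost at 0.42 on median-of-ratios rescaled FPM, 0.43 on TMM rescaled FPM, 0.53 with edgeR and 0.53 with DESeq2, at 0.49 without PBS 2 and LPA 3, and between 0.50 and 0.56 when any 1 library was left out; the cause was not tested, but MZB1 rests on 16 to 42 reads per library. The count of JCHAIN and MZB1 past the threshold, 2, became 1 in each of these settings, from 1 to 1 over the left-out libraries, and 1 with a filter at 5 FPM, which removes MZB1. The folding list went from 23 to 13 with DESeq2. The B cell receptor list went from 2 to 1 with either rescaling, a single prior variance, edgeR, DESeq2 and without PBS 2 and LPA 3, and lay between 1 and 2 over the left-out libraries. The V(D)J list went from 13 to 8 with a single prior variance and to 7 with DESeq2. ENAM lost its call with DESeq2 alone (0.36). Over all genes, 3666 higher and 731 lower calls became 1633 and 1497 on median-of-ratios rescaled FPM, 1683 and 1461 with TMM, 1679 and 1569 with edgeR, 802 and 943 with DESeq2, and 1566 and 473 with a single prior variance. Libraries of the same number did not deviate together (correlations between -0.05 and -0.01, against -0.01 to 0.05 for libraries of other numbers). With 3 libraries per group, this cannot decide whether the numbers pair them, and no pairing is stated. With the replicate block JCHAIN stayed at 0.87, MZB1 at 0.54 (limma adjusted p = 0.0498), and 3339 genes were higher and 720 lower. The planned ratio of JCHAIN to immunoglobulin and the summed immunoglobulin level were not run, since no immunoglobulin chain gene is analysed here.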

Other observations

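ST6GAL1, the sialyltransferase that adds sialic acid to the glycans of antibodies and other glycoproteins, was singled out after its values were seen. Its level was 1488, 1668 and 1482 FPM in PBS 1 to 3 and 2299, 2248 and 2464 FPM in LPA 1 to 3. The LPA libraries all lay above the PBS libraries, which holds for 31.4% of tested genes. The mean rose from 1546 ± 106 to 2337 ± 113 FPM (SD, n = 3 each), which is 0.60 as a log2 fold change (SE 0.04, adjusted p = 2.41e-14 by limma). On rescaled FPM it was 0.45 (limma adjusted p = 1.13e-13). Of all tested genes, 22.5% were called higher on deposited FPM and 10.0% on rescaled FPM.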
